A study of Mus musculus with 8 samples.

Results

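Transcripts of the endoplasmic reticulum (ER) chaperones and of the unfolded protein response (UPR) were examined in epididymal white adipose tissue (eWAT), the fat pad attached to the epididymis, of Abhd15 knockout (KO) and wild-type (WT) mice. The gene set was a list of 38 symbols that share these functions, and the list was drawn up with earlier results of these data known. Of the 38, 37 had a probe set annotated to 1 gene symbol, and 36 passed the filter on dim signals, out of 22180 genes measured and 11090 tested. Pdia4 shares its probe set with another symbol and was not analysed, and Sec61b was too dim to be tested. The list was divided into 15 chaperones and folding enzymes, 14 genes of the ATF6 and XBP1 arm, which includes the degradation machinery and the translocon, and 9 genes of the ATF4 arm. KO (n = 5) and WT (n = 3) animals were males on a C57BL/6J background, fed normal chow. At 14 weeks of age they were fasted overnight and refed for 1 h before the fat was frozen. One array was hybridised per mouse with 200 ng of RNA, and the making of the Abhd15 allele was not given in the sources used here. ABHD15 is an adipocyte protein linked to insulin's restraint of lipolysis, and the comparison asks what its loss does to gene expression in refed fat. The adipocyte markers Fabp4, Cidec and Adipoq were present in every array, with Fabp4, a fatty acid carrier, between 12.71 and 12.84 on the log2 scale.

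Secreted and membrane proteins fold in the ER, where chaperones of the HSP70 and HSP90 families, lectin chaperones and disulfide isomerases assist them. When unfolded proteins accumulate, the membrane sensors IRE1 (encoded by Ern1), ATF6 and PERK (encoded by Eif2ak3) become active. IRE1 splices the Xbp1 transcript, ATF6 is released by proteolysis to act as a transcription factor, and both raise chaperones and the ER-associated degradation (ERAD) machinery. PERK phosphorylates eIF2, which slows translation in general but favours translation of ATF4, a factor that induces amino acid synthesis, amino acid transport and stress genes. Other eIF2 kinases, which sense amino acid shortage among other stresses, converge on ATF4 as well. In fat, adipocytes secrete adipokines in large amounts, and feeding and insulin change the protein load that the ER receives.

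The sequence elements through which these factors are known to act were looked up in the promoter windows of RefSeq (GRCm38.p6), which run from 250 bases before to 50 bases after the annotated gene start and were available for 33 of the 38 members. The ER stress element (ERSE), bound by ATF6 with the factor NF-Y, was searched as CCAAT, 9 bases of any kind and CCACG, on both strands. It occurred in 9 of the 33 members (27.3%), against 37 of 27025 genes in the whole table (0.137%), so that these members made up 9 of the 37. Of the 9, 7 were chaperones or folding enzymes and the others were Derl3 and Syvn1, both of ERAD. Only Derl3 and Syvn1 are listed in the ATF6 and XBP1 arm, and a match does not rank genes by their tie to ATF6. The stretches that hold the element follow. Each is read 5′ to 3′ on the strand of its gene, with the 2 fixed parts of the element in capitals. Where the element lies on the opposite strand it reads CGTGG, 9 bases and ATTGG.
Hspa5, chr2:34772005-34772063, plus strand: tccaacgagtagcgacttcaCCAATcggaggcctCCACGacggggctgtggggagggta
Hsp90b1, chr10:86705513-86705676, minus strand: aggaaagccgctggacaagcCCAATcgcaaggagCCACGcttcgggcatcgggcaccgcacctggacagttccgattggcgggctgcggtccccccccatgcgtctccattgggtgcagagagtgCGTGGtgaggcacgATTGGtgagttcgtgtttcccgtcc
Calr, chr8:84847055-84847113, minus strand: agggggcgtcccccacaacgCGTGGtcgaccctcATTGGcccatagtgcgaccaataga
Canx, chr11:50325780-50325838, minus strand: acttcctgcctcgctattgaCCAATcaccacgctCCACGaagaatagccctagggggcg
Pdia6, chr12:17266471-17266529, plus strand: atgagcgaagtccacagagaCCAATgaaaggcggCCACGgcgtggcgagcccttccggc
Dnajc3, chr14:118937807-118937865, plus strand: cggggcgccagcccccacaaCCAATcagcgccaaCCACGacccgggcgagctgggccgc
Creld2, chr15:88819500-88819558, plus strand: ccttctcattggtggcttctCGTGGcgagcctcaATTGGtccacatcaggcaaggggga
Derl3, chr10:75893222-75893280, plus strand: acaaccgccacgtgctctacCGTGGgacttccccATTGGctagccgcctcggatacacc
Syvn1, chr19:6046512-6046570, plus strand: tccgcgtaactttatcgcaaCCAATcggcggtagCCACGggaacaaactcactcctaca
These elements began between 212 and 44 bases before the gene start. Hsp90b1 carried 2 of them. A match describes the letters in the window and does not show that a factor was bound in these mice.

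A shorter relative, ERSE-II (ATTGG, 1 base of any kind and CCACG), was found in Herpud1 and Dnajb11, against 0.0444% of all genes. The UPRE core TGACGTGG, an XBP1 element whose last letters are those of CCACG on the other strand, was in none of the 33 members and in 0.714% of all genes. ATF4 acts with C/EBP partners on the C/EBP-ATF response element (CARE), searched as TGATGNAA. It was present in 4 of the 9 ATF4-arm members (Atf3, Asns, Chac1 and Trib3) and in Herpud1, against 4.51% of all genes, and in none of the 13 chaperones with a window. The stretches for Herpud1, with both an ERSE-II and a CARE, and for 3 ATF4-arm genes follow, with the elements in capitals. On the opposite strand the CARE reads TTGCATCA.
Herpud1, chr8:94386297-94386407, plus strand: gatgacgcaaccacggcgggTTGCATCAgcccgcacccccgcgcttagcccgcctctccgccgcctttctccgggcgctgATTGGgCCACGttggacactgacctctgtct
Atf3, chr1:191183416-191183463, minus strand: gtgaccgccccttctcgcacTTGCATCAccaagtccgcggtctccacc
Chac1, chr2:119351029-119351076, plus strand: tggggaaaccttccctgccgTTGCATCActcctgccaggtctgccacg
Asns, chr6:7693210-7693252, minus strand: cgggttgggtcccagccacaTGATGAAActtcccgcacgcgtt
The CARE of Trib3 lay after the gene start and is not shown.

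Values are log2 intensities as deposited, after robust multi-array averaging (RMA), so that a difference of 1 is a doubling of signal. Array medians over all probe sets lay between 2.93 and 3.12, and any pair of arrays had r = 0.962 to 0.978 over the probe sets. Over the tested genes KO 5 had the lowest median, 5.929 where the rest had 6.035 to 6.0675, and limma gave it the lowest weight, 0.335. Transcripts of the epididymis were high in KO 4, and those of the seminal vesicle in WT 1, as given below. Abhd15 itself read 5.77, 6.07, 6.27, 5.60 and 5.75 in KO 1 to KO 5, against 6.36, 6.45 and 6.15 in WT 1 to WT 3. The log2 fold change was -0.43 (SE 0.17, adjusted p = 0.423 in limma, exact two-sided permutation p = 0.0714). A second, dimmer probe set of Abhd15 averaged 3.54 in KO and 4.235 in WT, a difference of -0.70 (exact two-sided permutation p = 0.107). The library labelled KO 3 lay within the WT range in both probe sets. The position of the probes relative to the deleted part was not given in the sources used here, hence the reading does not check the labels.

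Most genes of the ER list read slightly lower in KO than in WT, but no member passed the test. Of the 36 tested members, 27 had a log2 fold change below 0 and 9 above 0, with a median of -0.15. Over all tested genes 55.2% were below 0 and the median was -0.03. None of the 36 passed an adjusted p of 0.05 in limma, where 0% of the 11090 genes passed, and the lowest adjusted p among members was 0.331. At an unadjusted p under 0.05, 3 members were lower in KO (8.33%, against 6.46% of all tested genes) and 0 were higher (against 4.04%). Every KO array lay below every WT array for 6 members (16.7%, against 5.54% of all tested genes), and no member showed the opposite separation (against 2.99%). The share with an unadjusted p under 0.05 was thus near that of the array as a whole, whereas the share without overlap was larger. Neither share was tested, since the members were listed with results of these data known. With replicates 1 to 3 blocked by number the estimate is the mean difference of those 3 pairs, and KO 4 and KO 5 do not enter it. In that fit 4 members were lower at an unadjusted p under 0.05 (against 8.35% of all tested genes), 2 were higher (against 9.66%), and again 0 passed. Of the 3 members called as reported, only Dnajb9 (unadjusted p = 0.0347) was among the 4, with Hyou1, Chac1 and Sesn2.

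No test was made between the arms, whose values are given side by side. The median log2 fold change was -0.34 for the 9 ATF4-arm genes (7 lower, 2 higher), -0.13 for the 14 tested chaperones and folding enzymes (12 lower, 2 higher) and -0.08 for the 13 tested genes of the ATF6 and XBP1 arm (8 lower, 5 higher). The separated members lay in the last of these (Dnajb9, Atf6, Syvn1, Sel1l) and among the folding genes (Ero1a, the current symbol of Ero1l, and Hsp90b1), none in the ATF4 arm. In every one of the 36 members both group means were above the level filter of 3.61, so none entered the test through 1 group alone. In whole fat, fewer cells of a type and less RNA per cell cannot be told apart.

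**Figure D1:**
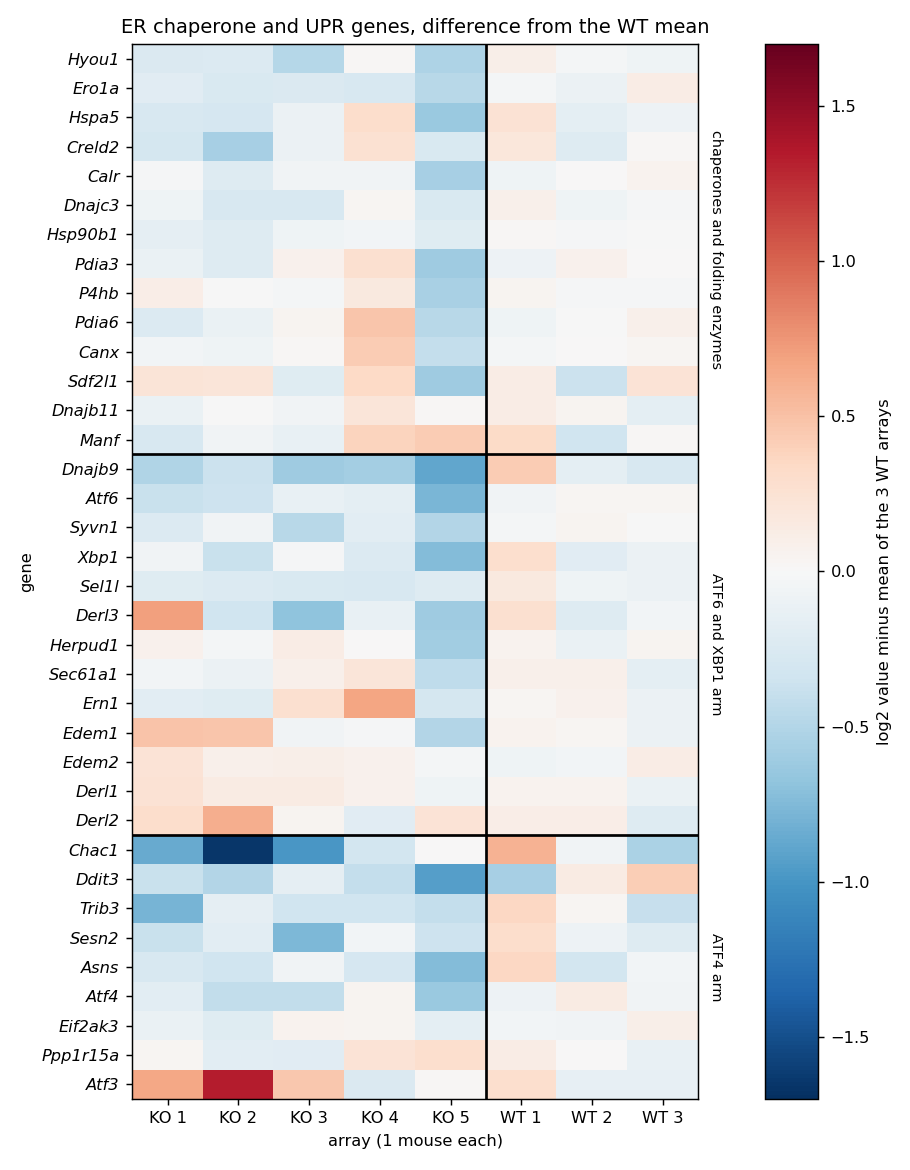
Difference of each array from the mean of the 3 WT arrays, in log2 units (colour), for the 36 tested members (rows, grouped by arm) in KO 1 to KO 5 and WT 1 to WT 3 (columns, with a line between the groups). The column of KO 5 is the bluest for chaperones and the ATF6 and XBP1 arm, KO 4 is red for many chaperones, and the upper ATF4-arm rows are blue in most KO arrays.

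Single animals weighed on these averages. KO 5 was the lowest of the 8 arrays for 20 of the 36 members (55.6%), against 28.9% of all tested genes. KO 4 was the highest for 10 members (27.8%, against 10.8%), of which 8 were chaperones or folding enzymes. WT 1 was also the highest for 10 members (27.8%, against 18.1%), of which 4 belonged to the ATF4 arm. The median difference of the chaperones and folding enzymes from their WT means was -0.13 in KO 1, -0.22 in KO 2, -0.08 in KO 3, 0.23 in KO 4 and -0.47 in KO 5. The chaperones therefore spanned a wider range among KO mice than the difference between the groups. For the ATF4 arm the same quantity was negative in all 5 KO arrays, from -0.35 in KO 5 to -0.20 in KO 3. WT 2 (-0.056) and WT 3 (-0.125) were negative as well, while WT 1 stood at 0.29 above its group mean. Without KO 5 the median of the 36 members was -0.09, with 22 lower and 14 higher. Without KO 4 it was -0.22, with 31 lower, and without WT 1 it was -0.10. The chaperone median of -0.13 was -0.05 without KO 5 and -0.20 without KO 4, and the ATF4-arm median of -0.34 was -0.19 without WT 1.

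KO 4 and WT 1 also carried transcripts of neighbouring organs, as did WT 2 for those of sperm and testis. Of 20 listed epididymis and seminal vesicle markers 18 were measured and none passed the level filter. Their summed linear signal was 71.1 to 3315 in KO, with KO 4 at the top and the other KO arrays at 91.4 or less, and 71.2 to 432 in WT, with WT 1 at the top. In KO 4 the epididymal genes Spint4 (10.25), Adam7 (10.24) and Rnase9 (8.60) stood out, and in WT 1 the seminal vesicle genes Svs5 (7.42), Svs4 (6.45) and Svs2 (6.38). Of 15 sperm and testis markers 14 were measured, and their mean was highest in WT 1 (5.56), followed by WT 2 (4.80) and KO 4 (4.59), with 3.51 to 3.91 in the other arrays. Tnp2, a nuclear protein of spermatids, read 4.47 in KO 4 and 2.31 to 2.96 in the other KO arrays, against 6.86 in WT 1, 5.53 in WT 2 and 2.10 in WT 3. The part of these tissues in the ER genes was not tested. Without KO 4 and WT 1, but with WT 2 kept, the median of the chaperones was -0.19 and that of the ATF4 arm -0.25.

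Of the 3 sensors, Atf6 was lower in KO while Ern1 and Eif2ak3 were close to level. Atf6 read 7.88, 7.91, 8.13, 8.10 and 7.49 in KO 1 to KO 5, against 8.20, 8.29 and 8.30 in WT 1 to WT 3. Every KO array lay below every WT array with KO 3 the closest to the WT range. The log2 fold change was -0.36 (SE 0.16, unadjusted p = 0.0451, adjusted p = 0.461), and it lay between -0.44 and -0.26 under the alternatives. With the replicate block it was -0.29 (unadjusted p = 0.056). Ern1, which encodes the kinase and RNase IRE1, read 6.16, 6.13, 6.60, 7.003 and 6.03 in KO, against 6.37, 6.40 and 6.24 in WT. KO 3 and, further off, KO 4 were above the WT arrays and 3 KO arrays were below them. The log2 fold change was 0.05 (95% interval -0.44 to 0.53). Eif2ak3, the gene for PERK, read 5.58, 5.48, 5.75, 5.75 and 5.53 in KO, against 5.65, 5.64 and 5.79 in WT. The groups overlapped, at a log2 fold change of -0.07 (95% interval -0.35 to 0.20).

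Among the folding genes, the 5 members of the HSP70 and HSP90 families and their cochaperones had log2 fold changes between -0.29 and 0.01, and of these Hsp90b1 separated the groups. Hspa5, which encodes BiP, the main ER HSP70 and a classical readout of the UPR, read 7.62, 7.61, 7.80, 8.19 and 7.26 in KO, against 8.14, 7.73 and 7.81 in WT. It was highest in KO 4 and lowest in KO 5, and the group means were 7.69 ± 0.34 in KO (SD, n = 5) and 7.89 ± 0.22 in WT (SD, n = 3). This amounted to -0.20 on the log2 scale (SE 0.20, adjusted p = 0.766). Without WT 1 it was -0.08. Hsp90b1, encoding the ER HSP90 GRP94, read 10.41, 10.34, 10.49, 10.51 and 10.35 in KO, against 10.58, 10.54 and 10.56 in WT. All 5 KO arrays were below all WT arrays, but the step was small, with a log2 fold change of -0.14 (adjusted p = 0.691, SE 0.11). Hyou1, a large HSP70-like nucleotide exchange factor for BiP, read 7.05, 7.07, 6.81, 7.32 and 6.78 in KO, against 7.40, 7.26 and 7.23 in WT. In KO, 4 of 5 arrays lay below the WT range and KO 4 inside it, with a log2 fold change of -0.29 (SE 0.15, unadjusted p = 0.0751, adjusted p = 0.518). Dnajc3, which encodes the BiP cochaperone p58IPK, read 8.73, 8.53, 8.53, 8.83 and 8.53 in KO, against 8.88, 8.72 and 8.78 in WT, a log2 fold change of -0.17 (SE 0.12). For Dnajc3 3 KO arrays lay below the WT range. The BiP cochaperone gene Dnajb11 overlapped fully (log2 fold change 0.01, 95% interval -0.28 to 0.29).

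The lectin chaperones and secreted or luminal stress proteins also overlapped between the groups. Calr (calreticulin) averaged 10.51 ± 0.23 in KO (SD, n = 5) and 10.70 ± 0.07 in WT (SD, n = 3), a log2 fold change of -0.19. Canx (calnexin) was at -0.02, with KO 4 the highest (10.94) and KO 5 the lowest (10.11) of all arrays. Creld2, a luminal protein induced by ER stress, was at -0.19, Sdf2l1, a component of the ER chaperone complex, at -0.01, and Manf, a secreted trophic factor induced by ER stress, at 0.07. Creld2 ran from 6.58 in KO 2 to 7.39 in KO 4, against 6.93 to 7.33 in WT, and Sdf2l1 from 4.72 in KO 5 to 5.66 in KO 4, against 4.96 to 5.56 in WT. Sdf2l1, Canx and Manf each changed sign under several alternatives.

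In oxidative folding, the oxidase gene Ero1a separated the groups and the disulfide isomerase genes overlapped. Ero1a, whose product passes oxidising equivalents to protein disulfide isomerase, read 7.26, 7.20, 7.21, 7.19 and 6.98 in KO, against 7.42, 7.36 and 7.59 in WT. No KO array reached the WT range, and the log2 fold change was -0.29 (SE 0.12, unadjusted p = 0.0381, adjusted p = 0.445). With the replicate block it was -0.23 (unadjusted p = 0.108). A second, dimmer probe set of Ero1a gave 4.51 in both groups, and with the mean of both probe sets the log2 fold change was -0.15 (unadjusted p = 0.25). The isomerase genes Pdia3, Pdia6 and P4hb had log2 fold changes of -0.12, -0.06 and -0.06. Their 95% intervals reached from -0.53 to 0.30 for Pdia3, from -0.49 to 0.37 for Pdia6 and from -0.44 to 0.31 for P4hb. In each of the 3 KO 4 was the highest of the 8 arrays and KO 5 the lowest.

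**Figure D2:**
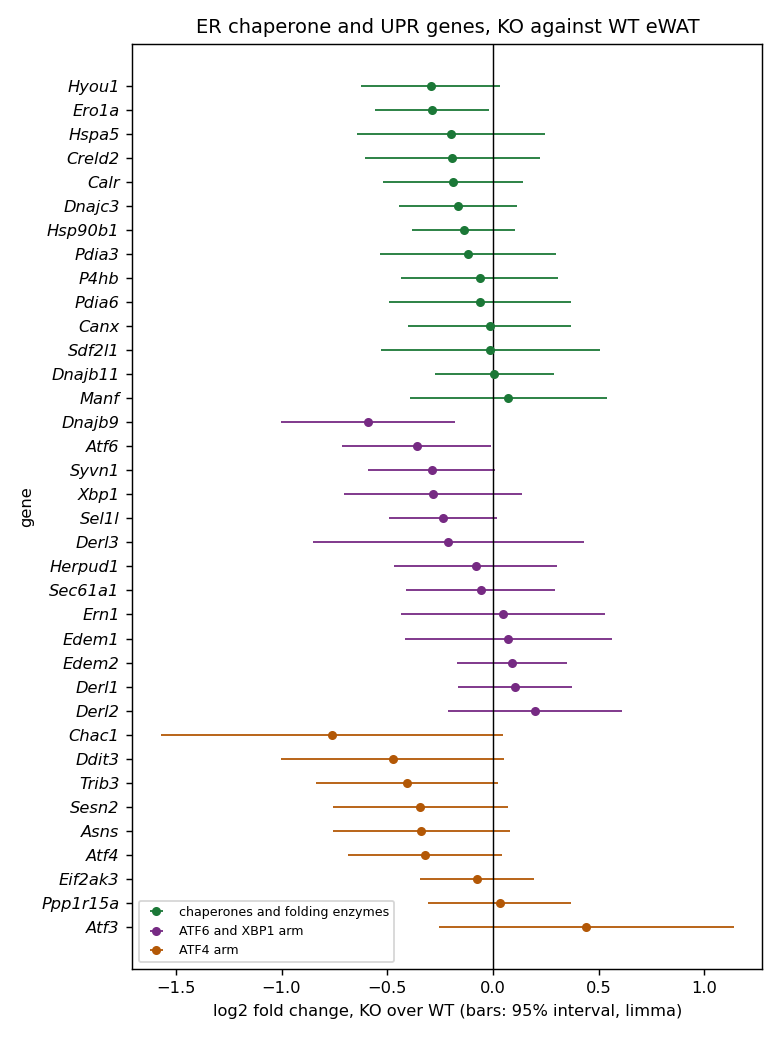
Log2 fold change of KO over WT (points, horizontal axis) with the 95% interval of limma (bars) for the 36 tested members, coloured by arm and ordered within it. Intervals that stay below 0 are those of Dnajb9, Atf6 and Ero1a, and Chac1 has the widest interval among the members on the left.

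The largest difference of the ATF6 and XBP1 arm was that of Dnajb9, which encodes ERdj4, a BiP cochaperone and XBP1 target that also restrains IRE1. It read 8.15, 8.29, 8.04, 8.07 and 7.77 in KO 1 to KO 5, against 9.09, 8.49 and 8.38 in WT 1 to WT 3. The KO arrays were all below the WT arrays, among which WT 1 was the highest. The group means were 8.06 ± 0.19 in KO (SD, n = 5) and 8.65 ± 0.38 in WT (SD, n = 3). The log2 fold change was -0.59 (SE 0.18, unadjusted p = 0.00953, adjusted p = 0.331), or a signal at 0.665 of the WT level. Without WT 1 the log2 fold change was -0.37 (unadjusted p = 0.0503). Over the alternatives it ran from -0.72 to -0.28 and its adjusted p from 0.223 to 0.762. Xbp1, the factor spliced by IRE1, read 9.46, 9.14, 9.50, 9.29 and 8.78 in KO, against 9.81, 9.33 and 9.42 in WT. The groups overlapped, at a log2 fold change of -0.28 (adjusted p = 0.621, SE 0.19), and it was -0.14 without WT 1 and -0.0078 without KO 5, WT 1 and KO 4. The probe set value does not tell spliced from unspliced Xbp1.

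Within ERAD the ubiquitin ligase genes Sel1l and Syvn1 separated the groups, and the other members had values on both sides of 0. Sel1l, the adaptor of the HRD1 ubiquitin ligase, read 8.31, 8.29, 8.27, 8.25 and 8.31 in KO, against 8.69, 8.44 and 8.43 in WT. The 5 KO values lay close together, between 8.25 and 8.31, and all below WT, with a log2 fold change of -0.24 (SE 0.11, unadjusted p = 0.0665, adjusted p = 0.5), and of -0.15 without WT 1. Syvn1, which encodes HRD1 itself, read 6.28, 6.46, 6.05, 6.33 and 6.02 in KO, against 6.49, 6.56 and 6.51 in WT. It too had no overlap, at a log2 fold change of -0.29 (SE 0.14, unadjusted p = 0.0583, adjusted p = 0.488). Sel1l and Syvn1 kept their sign under every alternative run, with ranges of -0.28 to -0.14 and of -0.38 to -0.24. The members with values above 0 were Derl1 (log2 fold change 0.10) and Derl2 (0.20), which form part of the membrane channel, and Edem1 (0.07) and Edem2 (0.09), which mark glycoproteins for degradation. For Derl1, 4 of 5 KO arrays were above all WT arrays. Edem1 was high in KO 1 (8.31) and KO 2 (8.29) and low in KO 5 (7.31), against 7.72 to 7.88 in WT. Derl3 was at -0.21 with the widest KO range of the arm, 3.43 to 4.81 in KO against 3.89 to 4.38 in WT.

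**Figure D3:**
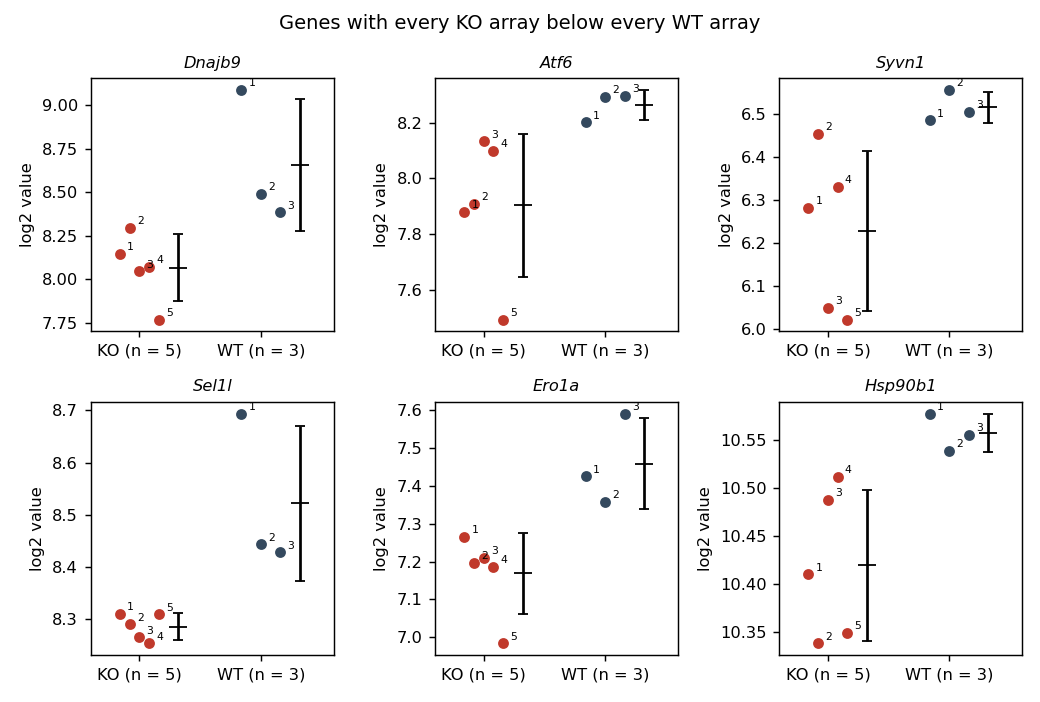
Log2 value of each array (points, with the replicate number) for the 6 members in which every KO array lay below every WT array, with the group mean and SD beside the points. The gap between the groups is widest for Sel1l and narrowest for Hsp90b1 and Syvn1, and WT 1 is the highest point for Dnajb9, Sel1l and Hsp90b1.

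Herpud1, an ER membrane protein of ERAD induced by both ATF6 and ATF4, was at -0.08 (95% interval -0.47 to 0.30), with KO 5 (8.38) apart from the other KO arrays (8.94 to 9.10) and WT between 8.85 and 9.03. The translocon gene Sec61a1 was at -0.06, and Sec61b, below the level filter, read 1.79 to 2.08 in KO and 1.83 to 2.38 in WT. The ATF6 and XBP1 arm as a whole thus had values on both sides of 0, and its median turned to 0.03 without KO 5.

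The ATF4 arm held the largest difference of the list, yet no gene in it separated the groups. Atf4, its transcription factor, read 7.60, 7.36, 7.36, 7.82 and 7.14 in KO, against 7.69, 7.92 and 7.72 in WT. KO 4 lay inside the WT range and the other KO arrays below it, with a log2 fold change of -0.32 (SE 0.16, unadjusted p = 0.0778, adjusted p = 0.524). ATF4 is set mainly by translation, so the transcript gives its message level alone. Ddit3, the gene of the stress factor CHOP, read 5.77, 5.66, 6.00, 5.75 and 5.22 in KO, against 5.58, 6.30 and 6.57 in WT. WT 1 was the lowest WT array here and within the KO range, and the log2 fold change of -0.47 (SE 0.24, unadjusted p = 0.0735, adjusted p = 0.515) was -0.76 without WT 1 (unadjusted p = 0.00599) and -0.26 without WT 3.

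Chac1, a glutathione-degrading enzyme and sensitive ATF4 and CHOP target, read 5.65, 4.86, 5.52, 6.20 and 6.52 in KO, against 7.10, 6.46 and 5.98 in WT. KO 1 to KO 3 lay below the WT range and KO 4 and KO 5 inside it. Its means were 5.75 ± 0.64 in KO (SD, n = 5) and 6.51 ± 0.56 in WT (SD, n = 3). The log2 fold change was -0.76 (SE 0.36, unadjusted p = 0.0624, adjusted p = 0.494). It was -0.47 without WT 1, -0.43 without KO 1 and KO 2, and -1.17 with the replicate block (unadjusted p = 0.00337, adjusted p = 0.142), where KO 4 and KO 5, the arrays inside the WT range, do not enter the estimate. Trib3, a pseudokinase that feeds back on CHOP and AKT, read 4.38, 5.02, 4.84, 4.84 and 4.78 in KO, against 5.54, 5.21 and 4.79 in WT. Its log2 fold change was -0.41 (SE 0.19, unadjusted p = 0.0623, adjusted p = 0.494), with WT 3 among the KO values, and -0.23 without WT 1.

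Asns, asparagine synthetase, averaged 8.46 ± 0.25 in KO (SD, n = 5) and 8.80 ± 0.33 in WT (SD, n = 3), a log2 fold change of -0.34. Sesn2, a stress-induced inhibitor of mTORC1, averaged 7.78 ± 0.27 in KO (SD, n = 5) and 8.12 ± 0.27 in WT (SD, n = 3), also a log2 fold change of -0.34. WT 1 was the highest array for both, at 9.15 and 8.42, and without it the values were -0.16 and -0.19. For 4 of the 7 ATF4-arm genes that read lower in KO (Chac1, Trib3, Asns and Sesn2), the highest of the 8 arrays was WT 1. Ppp1r15a, which encodes GADD34, the eIF2 phosphatase subunit that ends the response, was at 0.03 (95% interval -0.31 to 0.37).

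Atf3, a stress-induced repressor downstream of ATF4 that also belongs to the immediate early genes, ran the other way. It read 6.27, 6.95, 6.07, 5.36 and 5.63 in KO, against 5.90, 5.47 and 5.47 in WT. KO 1 to KO 3 were above all WT arrays and KO 4 below them, and the log2 fold change was 0.44 (SE 0.31, adjusted p = 0.646). The mean of 15 measured immediate early genes had the same order among KO arrays, at 6.63 in KO 1, 6.65 in KO 2, 5.95 in KO 3, 5.33 in KO 4 and 5.59 in KO 5, against 5.19 to 5.72 in WT. Fos, a member of that list, read 6.10, 6.63 and 5.18 in KO 1 to KO 3, 3.43 in KO 4 and 4.34 in KO 5, against 3.41 to 3.76 in WT. Without KO 1 and KO 2 the log2 fold change of Atf3 was 0.07. With the replicate block, and thus without the low values of KO 4 and KO 5, it was 0.82 (unadjusted p = 0.0138). The part of the immediate early response in it was not tested.

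**Figure D4:**
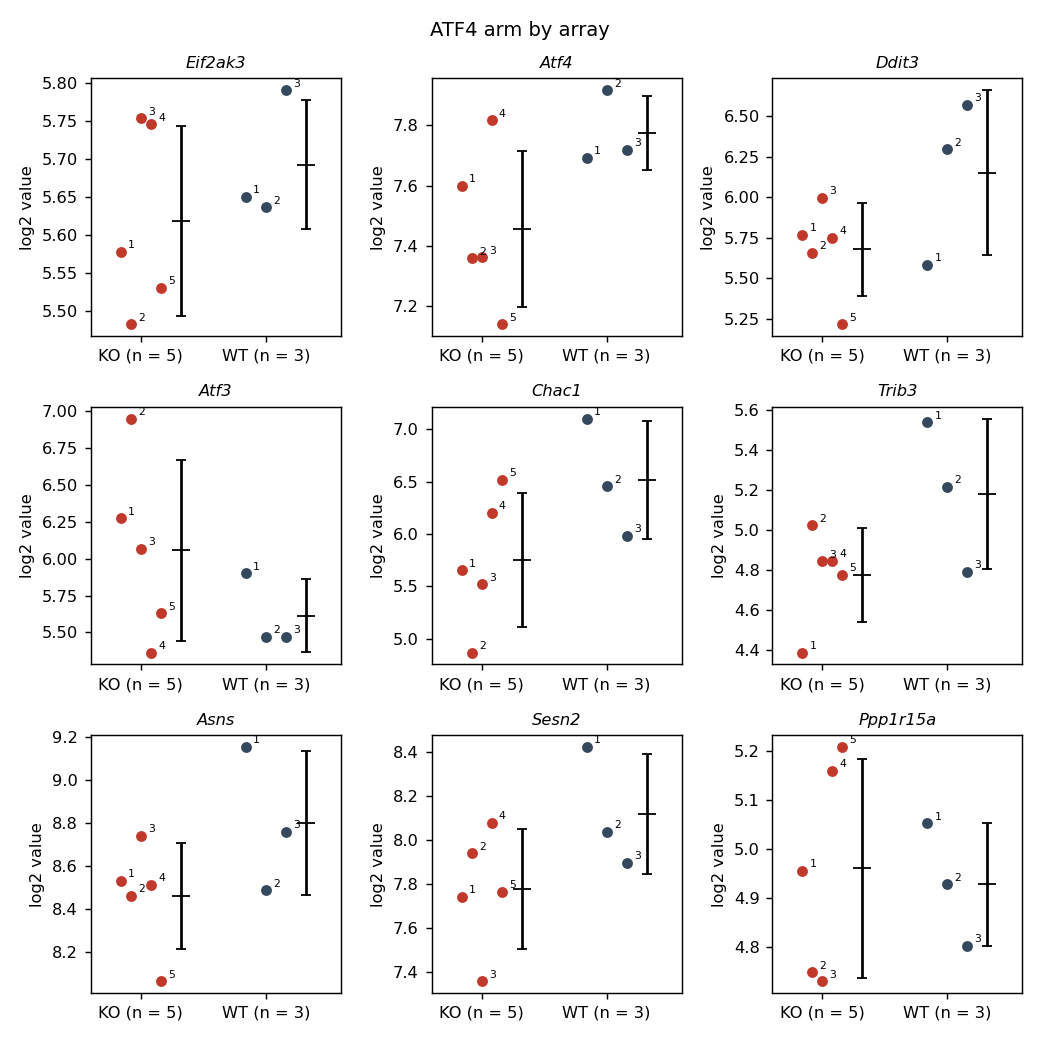
Log2 value of each array (points, with the replicate number) for the 9 genes of the ATF4 arm, with the group mean and SD beside the points. KO and WT overlap in all 9, WT 1 is the highest point for Chac1, Trib3, Asns and Sesn2, and Atf3 is highest in KO 1 to KO 3.

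Set beside the promoter elements, the 9 tested members with an ERSE all read lower in KO, from -0.29 in Syvn1 to -0.02 in Canx, with a median of -0.19. Of these 9, 7 were chaperones or folding enzymes, a group in which 12 of 14 tested genes read lower, and 55.2% of all tested genes did. Canx and Pdia6 changed sign under some alternatives, as did Derl3. The 22 tested members whose window was searched and held no ERSE had a median of -0.10, with 15 lower and 7 higher, and 5 tested members had no window to search. The 5 members with a CARE ran from -0.76 in Chac1 to 0.44 in Atf3, with a median of -0.34 and 4 lower. These are descriptions of small groups of genes measured on the same 8 arrays. Of the genes with an ERSE, KO 5 was the lowest array for Hspa5, Calr, Canx, Pdia6 and Syvn1. Of the genes with a CARE, Chac1, Trib3 and Asns were highest in WT 1, Herpud1 in KO 3 and Atf3 in KO 2. Without WT 1 the differences of Chac1, Trib3 and Asns were smaller, as given above. Among the members that separated the groups, Hsp90b1 and Syvn1 had an ERSE. Dnajb9, Sel1l and Ero1a, which also separated them, had neither an ERSE nor a CARE in their windows, and for Atf6 no window was available here.

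Beyond the 38 members, 9 lists of other ER and integrated stress response genes held 183 tested genes. Of these 113 read lower and 70 higher in KO, where 55.2% of all tested genes read lower. The median log2 fold change was -0.04. None passed the adjusted threshold in limma. At an unadjusted p under 0.05, 5 were lower (against 6.46% of all tested genes) and 1 was higher (against 4.04%). The members' median of -0.15 lay further from 0 than that of these neighbours, a difference that was not tested. Of 27 tested genes on the list headed other folding enzymes and chaperones 14 were lower and 13 higher. The nearest to the threshold on that list were Cdnf, a paralogue of Manf (log2 fold change 0.50, unadjusted p = 0.0258), Hspb11 (0.29) and Txndc11 (-0.27). Of 20 genes of N-glycan transfer and the calnexin cycle 11 were lower and 9 higher, led by Rpn1, an oligosaccharyltransferase subunit (-0.27), the glucosidase subunit Ganab (-0.17) and the lectin Mlec (0.39). Of 23 other ERAD genes 11 were lower and 12 higher, led by the lectin Os9 (0.20), the extraction ATPase Vcp (-0.28) and Faf2 (-0.36). Of 22 translocon and targeting genes 14 were lower and 8 higher, led by Tram1 (0.18), Spcs2 (-0.33) and Srpr (-0.19).

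Of 20 genes of the COPII coat and the KDEL receptors, which carry cargo out of the ER and return residents to it, 14 were lower and 6 higher, with Sec24a (-0.42, unadjusted p = 0.0453), Sec16a (-0.30, unadjusted p = 0.0479) and Sec31a (0.23) nearest to the threshold. Among 17 bZIP factors and their partners 11 were lower and 6 higher. Nfyb, a subunit of the NF-Y complex that binds the CCAAT part of the ERSE, read 5.67, 5.22, 5.42, 5.80 and 6.10 in KO, against 6.62, 5.95 and 6.59 in WT. Its log2 fold change was -0.74 (SE 0.22, unadjusted p = 0.00782, adjusted p = 0.328), with KO 5 inside the WT range. Creb3l1 (-0.40) and Traf2 (-0.31) followed. Of 13 tested genes on the list of eIF2 kinases, eIF2, eIF2B and genes grouped with them, 9 were lower and 4 higher. That list was led by Impact (-0.30), Gcn1 (0.21) and Eif2b3 (-0.27).

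Of 23 other ATF4-responsive genes 13 were lower and 10 higher, with a median of -0.06 where the ATF4 arm had -0.34, a difference that was not tested. Nearest to the threshold were the amino acid transporter genes Slc38a2 (-0.69, unadjusted p = 0.0242) and Slc7a5 (-0.41), and the secreted glycoprotein gene Stc2 (0.33). Slc38a2 read 7.67, 7.50, 8.09, 8.31 and 8.59 in KO, against 9.09, 8.73 and 8.36 in WT, with KO 5 inside the WT range and the other KO arrays below it. Of 18 aminoacyl-tRNA synthetase genes, many of which ATF4 induces, 16 were lower and 2 higher, with a median of -0.16, led by Farsb (-0.43, unadjusted p = 0.0262), Iars (-0.38) and Gars (-0.40). The mean of these genes was 7.33 in WT 1, 7.05 in WT 2 and 7.10 in WT 3, against 6.91 to 7.09 in KO. WT 2 thus lay inside the KO range, WT 3 just above it, and WT 1 stood apart.

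Markers of other cell types that are rich in ER were checked in the same arrays. Of 14 B and plasma cell genes 12 were measured and 4 passed the level filter, with 2 lower and 2 higher in KO. Their summed linear signal was 376 to 1803 in KO and 673 to 808 in WT, highest in KO 3 and lowest in KO 5. Ighm, the immunoglobulin heavy chain gene, read 9.90, 9.84, 10.59, 8.59 and 7.96 in KO, against 9.35, 9.31 and 9.06 in WT, and Jchain, the joining chain of antibodies, 2.84 to 6.28 in KO and 4.38 to 4.95 in WT. Cd79a and Ms4a1, B cell surface genes, were highest in KO 3 (5.31 and 4.07), while Mzb1 (2.61 to 3.08 in KO, 2.56 to 2.92 in WT) and Tnfrsf17, both of plasma cells, were low in all arrays. Of 12 macrophage genes 9 were lower and 3 higher, with sums of 2927 to 3734 in KO and 3532 to 3763 in WT. Of 11 measured fibroblast and preadipocyte genes 7 were lower, with sums of 6747 to 7810 in KO and 6926 to 8654 in WT, and of 12 mesothelial genes 5 were lower, with sums of 914 to 1223 in KO and 1091 to 1219 in WT. Lower at an unadjusted p under 0.05 were 1 fibroblast gene (Pdgfrb, -0.44) and 2 mesothelial genes, against 6.46% of all tested genes. The mesothelial genes were Prg4 (-1.30, adjusted p = 0.0752 in limma) and Muc16 (-0.85). In both lists 0 were higher (against 4.04%). Of 12 endothelial genes 9 were lower and 3 higher, with a median log2 fold change of -0.37. At an unadjusted p under 0.05, 5 were lower, where 6.46% of all tested genes were. These were Kdr (-0.69), Pecam1 (-0.64), Egfl7 (-0.48), Eng (-0.48) and Tek (-0.46). In the other direction 1 was called (Cldn5, a tight junction gene, at 0.61), against 4.04% of all tested genes. The list had sums of 2486 to 3655 in KO and 3193 to 4219 in WT. Of 11 measured adipocyte genes 8 were lower, with sums of 23770 to 28600 in KO and 27550 to 28490 in WT, and the lowest sums were in KO 5 (23770) and KO 4 (24800). Among the adipocyte genes 1 was lower at an unadjusted p under 0.05 (Plin4, -0.51, against 6.46% of all tested genes) and 0 were higher (against 4.04%). The part of the cell type makeup in the ER genes was not tested. Of 10 measured cytosolic heat shock genes 7 were lower and 3 higher, with sums of 3715 to 4418 in KO and 3852 to 4430 in WT.

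**Figure D5:**
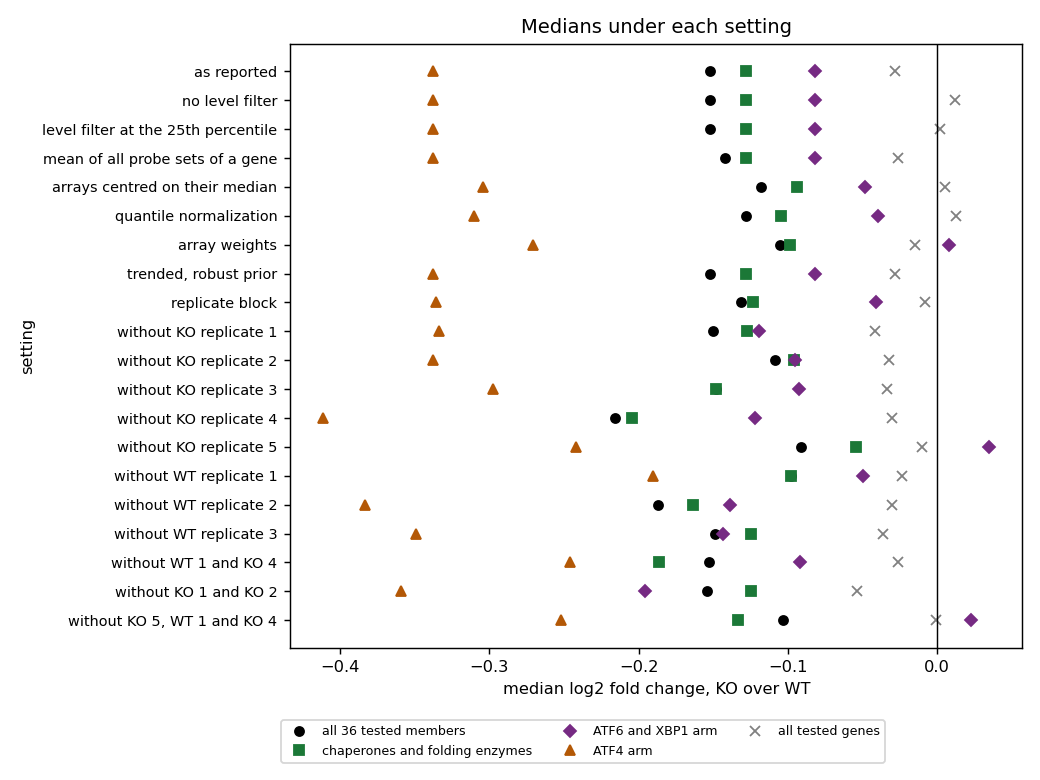
Median log2 fold change of KO over WT (horizontal axis) for the 36 tested members, each arm and all tested genes, under the settings as reported and each alternative (rows). The ATF4 arm stays between -0.41 and -0.19, and the ATF6 and XBP1 arm moves to just above 0 with array weights, without KO 5, and without KO 5, WT 1 and KO 4.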

How the data were processed

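Affymetrix Mouse Gene 2.0 ST arrays were run on eWAT RNA of 5 KO and 3 WT mice, grouped by the sample titles. The authors deposited a table of log2 values, 1 for each probe set in each array. Per the submitters' processing notes RMA and oligo were used, and the series design text names Expression Console. Versions, a genome build and further steps were not given in the sources used here. Values were used as deposited.

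Probe sets with 1 symbol (23521 of 41345) were named from the platform annotation, and 23328 were updated to GRCm38.p6 symbols through Entrez identifiers. Per gene the probe set of highest mean was kept (22180 genes), and genes at or above the median of the means (3.61) were tested (11090). RMA compresses differences of dim probe sets. The KO and WT arrays were set against each other with limma 3.58.1 (lmFit, eBayes, R 4.3.3), two-sided, at 0.05 after Benjamini-Hochberg adjustment over the 11090 genes. Adjusted and unadjusted p-values are limma's unless a permutation test is named. The smallest exact permutation p for 5 against 3 arrays is 0.0357. The procedure was tested on simulated data. Plots used matplotlib 3.10.9 (Python 3.11.15).

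The members and lists were chosen with earlier results of these data known, so lists get counts and medians and no test. Per-array values are given for the sensors, Xbp1, Atf4, Ddit3, Hspa5 and up to 4 members per arm of smallest unadjusted p. Of each wider list up to 3 genes of smallest unadjusted p are named. Per-array values of Atf3, Nfyb and Slc38a2, and markers other than Abhd15, were picked after their values were seen. Alternatives covered the level filter, probe sets, scaling, variance model, replicate block and left-out arrays. The fit without KO 5, WT 1 and KO 4 was added after seeing the data.

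KO and WT share the replicate numbers 1 to 3. After subtracting group means, arrays that share a number correlated at 0.133, 0.103 and 0.192. All exceed 0.1, so a fit blocked by number was run as an alternative, while the fit as reported is unpaired. KO 1 with WT 2 gave 0.105, above the matched pair 2. The correlations therefore do not settle whether the numbers pair the arrays, and what a number stands for was not stated. No 2 arrays were identical.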

Additional observations from a re-analysis of the deposited data

Results flagged for a closer look

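For 3 of the 36 tested members 1 KO array lay apart from the other 4 KO arrays by more than the 95% critical value of Dixon's test, a share of 8.33%, against 6.79% of all tested genes. Chance gives about 1 in 20 groups. The disulfide isomerase gene P4hb read 8.847 in KO 5, where the next KO array read 9.36. The oxidase gene Ero1a read 6.984 in KO 5, with the next at 7.186. The ERAD gene Herpud1 read 8.376 in KO 5, with the next at 8.935. In each case KO 5 was the lowest array of the group. KO 5 also had the lowest median over all tested genes and the lowest array weight (0.335). Without KO 5 the log2 fold changes were 0.06 for P4hb, -0.24 for Ero1a and 0.04 for Herpud1.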

How the results depend on the processing

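No member passed the adjusted threshold under any of the 19 alternatives, and the lowest adjusted p of a member was 0.142 (Chac1, replicate block). Over all tested genes 0 passed as reported, where 1164 had an unadjusted p under 0.05, and 40 passed with array weights, 3 with a trended, robust prior, 2 with the replicate block and between 0 and 5 without single replicates. Members lower in KO at an unadjusted p under 0.05 numbered 3 as reported (6.46% of all tested genes), 1 with arrays centred on their median (4.53%), 6 with array weights (9.59%), 4 with the replicate block (8.35%) and 1 to 5 without single replicates (1 without WT 1, with 4.29%, and 5 without KO 4, with 6.47%). Members higher numbered 0 as reported (4.04%), 1 with array weights (7.3%), 2 with the replicate block (9.66%), 1 without WT 1 and KO 4 (2.68%) and 1 without KO 5, WT 1 and KO 4 (7.72%). The share of all genes at an unadjusted p under 0.05 that were higher in KO was 38.5% as reported, 48.7% with centred arrays and 54.4% after quantile normalization. The ATF6 and XBP1 arm's median, -0.08 as reported, was 0.0078 with array weights, 0.0225 without KO 5, WT 1 and KO 4, -0.20 without KO 1 and KO 2, and between -0.14 and 0.03 without single replicates (0.03 without KO 5). The ATF4 arm's median was between -0.41 and -0.19 without single replicates, with -0.19 without WT 1. The cause of these shifts was not tested.

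Of the 36 members 23 kept their sign under all 19 alternatives and 13 changed it under at least 1, all with an absolute log2 fold change of 0.21 or less as reported. With arrays centred on their median Canx was 0.0186 and Sdf2l1 0.0222, and after quantile normalization they were 0.0116 and 0.0258. With array weights Canx was 0.0071, P4hb 0.0151, Sdf2l1 0.1038, Herpud1 0.0116, Sec61a1 0.0078 and Ppp1r15a -0.002. With the replicate block P4hb was 0.0253, Dnajb11 -0.0613, Sdf2l1 0.0723, Manf -0.1503, Ern1 -0.0407, Herpud1 0.0563 and Ppp1r15a -0.1167. Without KO 1 and KO 2 Canx was 0.019, Pdia6 0.0123 and Edem1 -0.196, and without WT 1 and KO 4 Ern1 was -0.092. Without KO 5, WT 1 and KO 4 P4hb was 0.0472, Dnajb11 -0.0015, Sdf2l1 0.1383, Ern1 -0.0258, Herpud1 0.0888, Derl3 0.0255, Sec61a1 0.0225 and Ppp1r15a -0.0542. Without single replicates the ranges were -0.1283 to 0.081 for Canx, -0.2152 to 0.0043 for Pdia3, -0.1938 to 0.0407 for Pdia6, -0.1181 to 0.0589 for P4hb, -0.0781 to 0.0669 for Dnajb11, -0.1939 to 0.1375 for Sdf2l1, -0.0989 to 0.2336 for Manf, -0.1068 to 0.1362 for Ern1, -0.1385 to 0.0447 for Herpud1, -0.0303 to 0.2177 for Edem1, -0.1433 to 0.0349 for Sec61a1 and -0.0299 to 0.0951 for Ppp1r15a. The number of arrays limits the precision.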
